A study of Mus musculus with 4 samples.

Results

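Layer 6b neurons were followed here as the deposited cell type Glutamatergic_L6b_CTX (L6b_CTX below), in spatial transcriptomics of sagittal mouse brain sections. A spot, a small region of tissue that can hold several cells, was counted as holding the type where its deposited L6b_CTX share was above 0. Of 14809 spots in all, 347 held it. The 4 sections came from wild-type C57 mice, 1 section for each of 4 groups. The control mouse received saline. The resilient and the susceptible mouse were sorted by a social interaction test after chronic social defeat stress (CSDS), in which a mouse is repeatedly defeated by an aggressor, and received saline. The ketamine-treated mouse was a susceptible one, given ketamine intraperitoneally at 10 mg/kg, and brains were collected 7 days after ketamine. Neither the animals' ages nor what the control mouse went through is given in the sources used here. With 1 section a group there is no test across mice, and every comparison below sets 1 section against another. What part of the brain a section covers cannot be told apart from its group. The 95% intervals cover counting error only, treat neighbouring spots as independent, and are exact Clopper-Pearson intervals for shares and log-scale intervals for ratios. For a count of 0, the share it allows is given as 3 counts of the total, a rule apart from these intervals.

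Layer 6b is the deepest and thinnest sheet of the cerebral cortex, lying directly on the white matter, and many of its neurons descend from the subplate, a transient layer of early-born cells. Its neurons project within the cortex and to higher-order thalamus, and they are known for responding to the wake-promoting peptide orexin. Above them lie the corticothalamic neurons of layer 6, named L6_CT_CTX in the tables, which send feedback to the thalamus. Below them lie the myelinating oligodendrocytes of the white matter, named Oligo.

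The resilient section had the largest share of spots holding L6b_CTX and the susceptible section the smallest. The type was held by 93 of 3733 control spots, 2.49% (95% interval 2.02 to 3.04). In the resilient section it was held by 123 of 4156 spots, 2.96% (2.47 to 3.52). The susceptible section had 46 of 3443 spots, 1.34% (0.98 to 1.78), and the ketamine-treated section 85 of 3477 spots, 2.44% (1.96 to 3.01). The interval of the susceptible section lay below those of the other 3 sections, which overlapped one another. As a mean over all spots, L6b_CTX took 1.10% of the control section, 1.19% of the resilient one, 0.668% of the susceptible one and 1.17% of the ketamine-treated one. In such spots, fewer cells of a type and less RNA per cell cannot be told apart.

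**Figure D1:**
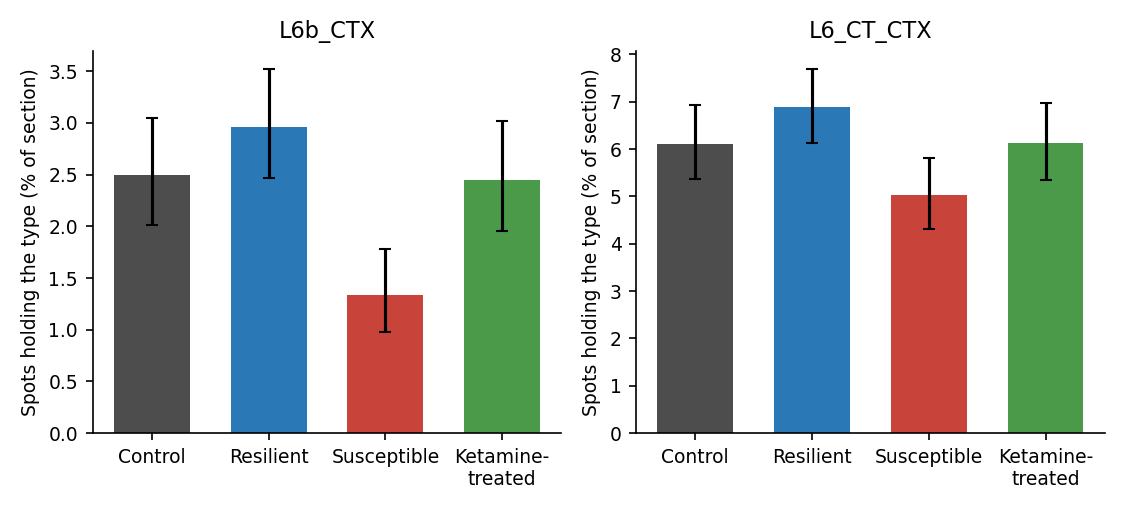
Share of spots holding L6b_CTX (left) and L6_CT_CTX (right) in each of the 4 sections, in percent of all spots of the section, with exact 95% intervals as error bars; the vertical axes differ. L6b_CTX ranged from 1.34% in the susceptible to 2.96% in the resilient section, and L6_CT_CTX from 5.02% to 6.88% in the same sections.

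No type was kept below 10.1% of a spot, so any held type took a sizeable part. Where held, L6_CT_CTX averaged 52.3% (control), 54.4% (resilient), 59.4% (susceptible) and 58.1% (ketamine-treated), above L6b_CTX in each section. The share of L6b_CTX where held averaged 44.0% ± 20.8 (SD over 93 spots) for the control, 40.04% ± 20.4 (123 spots) for the resilient, 50.02% ± 23.6 (46 spots) for the susceptible and 47.7% ± 22.6 (85 spots) for the ketamine-treated section. The lowest values kept were 14.5%, 14.03%, 20.1% and 12.7% in that order, and the highest was 100% in every section. It had the highest share in 44 of the 93 control spots, 45 of 123 resilient, 24 of 46 susceptible and 45 of 85 ketamine-treated spots, and was the single type in 6, 5, 6 and 8 of them. The section with the fewest such spots thus had the highest mean share within them, and the ratio of susceptible to control was 0.536 for the share of spots, 1.14 for the share where held and 0.610 for the mean over all spots. L6b_CTX spots held on average 2.61 (control), 2.89 (resilient), 2.33 (susceptible) and 2.51 (ketamine-treated) types. Other spots with a cortical type (a name ending in CTX) held 2.72, 2.80, 2.48 and 2.70 in that order, and all other spots 2.21, 2.29, 2.06 and 2.13. L6b_CTX spots were thus below the other cortical spots in 3 sections and above them in the resilient one.

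L6b_CTX spots were gathered in a few of the 17 deposited clusters. Cluster 2, whose leading types in each section were L5_PT_RSP_ACA (layer 5 neurons of the pyramidal tract, named for retrosplenial and anterior cingulate cortex), L5_IT_CTX (layer 5 neurons projecting within the telencephalon) and L6_CT_CTX, held 267 of the 347 spots. Cluster 7, of which Oligo made up 70.1% to 72.1% by mean share, held 35. Cluster 9, a mixture of cortical types and astrocytes, held 28, and cluster 11, led by oligodendrocytes or astrocytes, held 7. No L6b_CTX was found in clusters 4, 8, 12, 14, 15, 16 and 17, and the remaining clusters held 1 to 3 spots each. The sections differed in cluster makeup. Cluster 5 had 465 control, 2 resilient, 239 susceptible and 293 ketamine-treated spots, and cluster 4 had 72, 426, 254 and 311. Whether the sections cover the same brain regions was not tested.

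In percentage points of the section, cluster 2 carried most of the susceptible section's difference in L6b_CTX from each of the other 3. The type was in 67 of 716 cluster 2 spots of the control, 9.36% (7.33 to 11.7). It was in 91 of 766 resilient spots, 11.9% (9.67 to 14.4), and in 70 of 663 ketamine-treated spots, 10.6% (8.32 to 13.2). In the susceptible section it was in 39 of 761 spots, 5.12% (3.67 to 6.94), an interval below the other 3. Cluster 2 itself took the largest part of the susceptible section, 22.1% of spots against 18.4% to 19.2% elsewhere. In the white matter cluster 7 the order was another one, with 17 of 249 spots in the control, 6.83% (4.03 to 10.7), followed by 9 of 231 in the resilient section, 3.90% (1.80 to 7.27), then 7 of 239 in the ketamine-treated section, 2.93% (1.19 to 5.94), and last 2 of 241 in the susceptible section, 0.830% (0.101 to 2.97). Only the control and susceptible intervals did not overlap there. In cluster 7 L6b_CTX had the highest share in none of the control, resilient or susceptible spots and in 2 of the 7 ketamine-treated ones, and its mean share where held was 26.4% to 35.6%, against 42.6% to 52.2% in cluster 2.

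**Figure D2:**
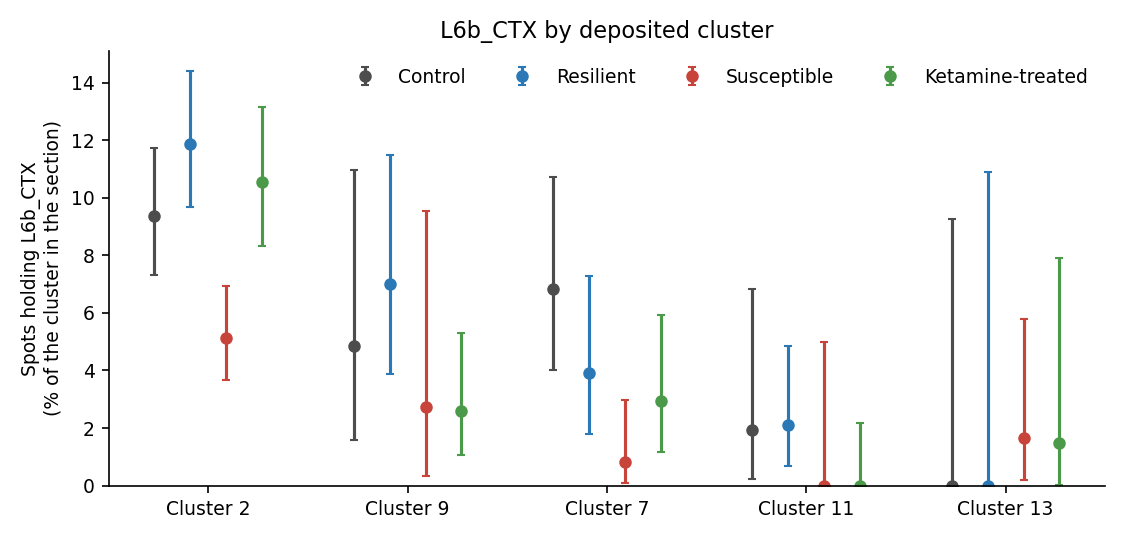
Spots holding L6b_CTX in percent of the spots of a deposited cluster, for the 5 clusters with at least 3 such spots over all sections; points are sections and bars exact 95% intervals. In cluster 2 the susceptible section stood at 5.12% and the others between 9.36% and 11.9%; in cluster 7 the control stood highest, at 6.83%.

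Of the other deposited types, L6_CT_CTX had the cluster pattern most like that of L6b_CTX. Over the 61 combinations of section and cluster with at least 20 spots, the share of spots holding each type correlated with that of L6b_CTX at r = 0.907 for L6_CT_CTX (rho = 0.725), 0.707 for L5_IT_CTX (rho = 0.407) and 0.692 for L5_PT_RSP_ACA (rho = 0.297). These are descriptions, since the points share sections and libraries. A like pattern over clusters did not mean sharing of spots. L5_IT_CTX was in 4 of 93 L6b_CTX spots of the control and 1 of 46 of the susceptible section. It was in 0 of 123 resilient and 0 of 85 ketamine-treated ones, which allows shares of up to 2.44% and 3.53%. Other spots weighted to the clusters of the L6b_CTX spots held L5_IT_CTX in 25.2% to 33.3%.

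L6_CT_CTX was one of the 2 most frequent partners of L6b_CTX within spots. It was in 24 of 93 L6b_CTX spots in the control, 25.8% (17.3 to 35.9), and in 51 of 123 in the resilient section, 41.5% (32.7 to 50.7). In the susceptible section it was in 13 of 46, 28.3% (15.99 to 43.5), and in the ketamine-treated section in 30 of 85, 35.3% (25.2 to 46.4). The 4 intervals overlapped. Spots without L6b_CTX held it in 5.60%, 5.83%, 4.71% and 5.395% in the same order, a ratio of 4.60 (3.18 to 6.66), 7.12 (5.58 to 9.08), 6.0001 (3.70 to 9.74) and 6.54 (4.75 to 9.01). Most of that ratio went with the clusters. Against other spots weighted to the clusters of the L6b_CTX spots, the ratios were 1.21, 1.72, 1.58 and 1.56. Set against other spots with a cortical type, a group that L6_CT_CTX itself helps to define, they were 0.908, 1.37, 1.05 and 1.24. The cluster-weighted other spots held L6_CT_CTX in 21.4%, 24.2%, 17.8% and 22.6%. These lay within the L6b_CTX intervals in the control and susceptible sections and below them in the resilient and ketamine-treated sections. In shared spots L6_CT_CTX was usually the larger of the pair, in 14 of 24 control, 44 of 51 resilient, 10 of 13 susceptible and 25 of 30 ketamine-treated spots.

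Oligo was the other frequent partner, and its frequency followed the section. It was in 51 of 93 L6b_CTX spots of the control, 54.8% (44.2 to 65.2), and 45 of 123 of the resilient section, 36.6% (28.1 to 45.7). The susceptible section had it in 11 of 46, 23.9% (12.6 to 38.8), and the ketamine-treated section in 22 of 85, 25.9% (16.985 to 36.5). The control interval did not overlap those of the susceptible and ketamine-treated sections. All other spots held Oligo in 41.9%, 31.0%, 25.7% and 24.1%, so the ratio of L6b_CTX spots to all others was 1.31 (1.08 to 1.58), 1.18 (0.931 to 1.496), 0.930 (0.554 to 1.56) and 1.07 (0.745 to 1.55). Only in the control did its interval lie above 1. These other spots include the white matter itself. Other spots with a cortical type held Oligo in 9.75%, 5.15%, 4.19% and 6.40%, and against them the ratios were 5.62, 7.11, 5.71 and 4.05. With the other spots weighted to the clusters of the L6b_CTX spots they were 1.84, 2.36, 1.80 and 1.47. The weighted other spots held Oligo in 29.7%, 15.5%, 13.3% and 17.7%. These lay below the L6b_CTX intervals in the control and resilient sections and within them in the susceptible and ketamine-treated sections.

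**Figure D3:**
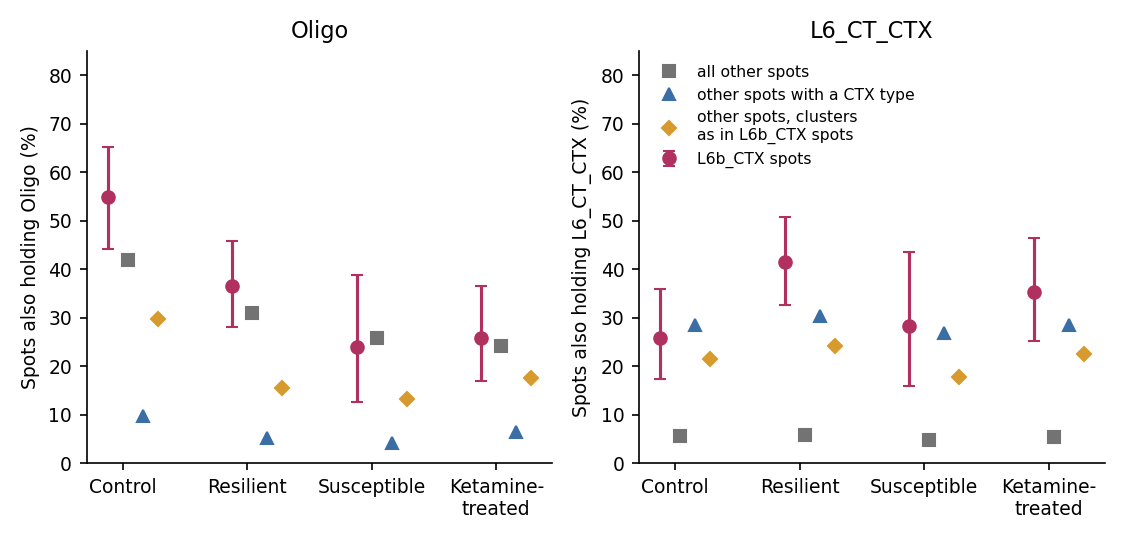
Percent of L6b_CTX spots that also hold Oligo (left) or L6_CT_CTX (right) in each section, with exact 95% intervals, beside the percent of all other spots, of other spots with a cortical (CTX) type, and of other spots weighted to the clusters of the L6b_CTX spots. Oligo was in 23.9% to 54.8% of L6b_CTX spots and 4.19% to 9.75% of other spots with a cortical type.

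Within cluster 2 alone, Oligo was in 31 of 67 L6b_CTX spots of the control (46.3%), 25 of 91 of the resilient (27.5%), 8 of 39 of the susceptible (20.5%) and 14 of 70 of the ketamine-treated section (20.0%). The other cluster 2 spots held it in 13.3%, 6.96%, 8.03% and 10.6%. By these shares, given without intervals, L6b_CTX spots were above their neighbours in cluster in all 4 sections. Among deep-layer types with at least 20 spots in a section, L6b_CTX had the largest part of its spots shared with Oligo in the control, resilient and susceptible sections, ahead of L6_CT_CTX (26.3%), L6b_RHP (26.3%) and L6_IT_ENTl (21.7%), the runners-up in these sections. L6b_RHP in the susceptible section, with 19 spots just under that minimum, shared 36.8% of them with Oligo, and in the control, with 12 spots, 33.3%. In the ketamine-treated section it came after L6b_RHP, at 25.9% against 39.3%. Among all glutamatergic types with at least 20 spots it ranked 5 of 22, 6 of 29, 6 of 24 and 8 of 22, where the median type shared 18.7%, 12.03%, 11.7% and 10.1% of its spots with Oligo. The name of a type at the border of the white matter could be set only against other deposited types, since gene counts and spot positions in the tissue were not analysed here.

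L6_CT_CTX was less frequent in L6b_CTX spots with Oligo than in those without, but the intervals lay apart in the resilient and ketamine-treated sections only. All 3 types were together in 10 control, 10 resilient, 0 susceptible and 1 ketamine-treated spots. The 0 of 46 allows a share of up to 6.52%. L6_CT_CTX was in 19.6% (9.82 to 33.1) of control L6b_CTX spots with Oligo and 33.3% (19.6 to 49.5) of those without. In the resilient section it was in 22.2% (11.2 to 37.1) and 52.6% (40.9 to 64.0). In the susceptible section these were 0 of 11 spots and 13 of 35, and in the ketamine-treated section 1 of 22 and 29 of 63. The shares of a spot sum to 1 and few types are kept in a spot, so 1 partner leaves less room for another, whose part in this was not tested. A further 28, 37, 22 and 34 spots, in the order control, resilient, susceptible and ketamine-treated, held neither partner. In these L6b_CTX averaged 62.3%, 50.9%, 63.9% and 61.9% of the spot.

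**Figure D4:**
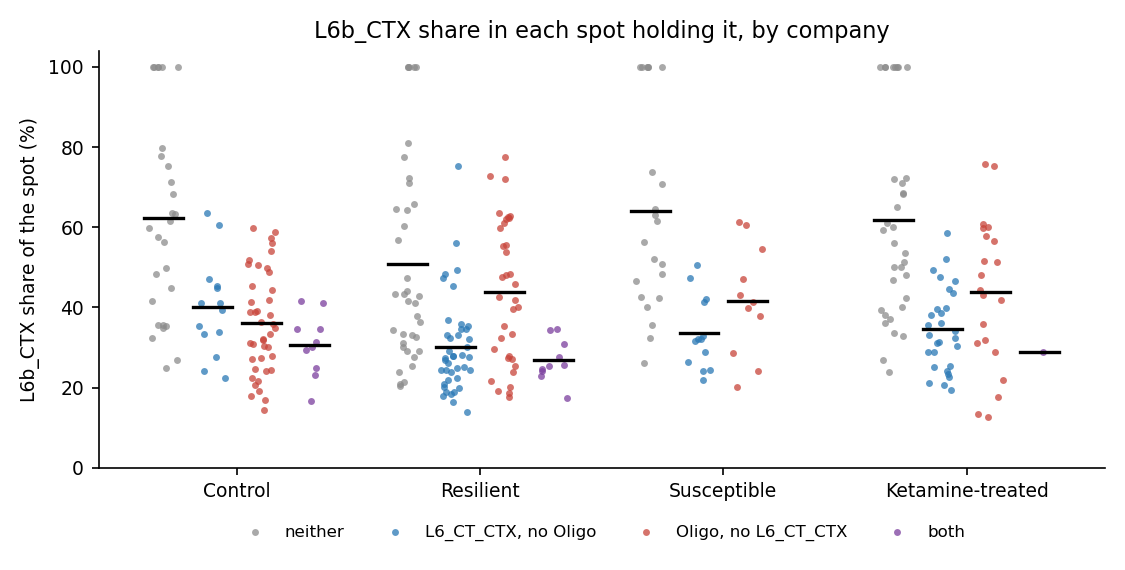
Share of the spot taken by L6b_CTX in each of the 347 spots that hold it, in percent, by section and by whether the spot also holds L6_CT_CTX, Oligo, both or neither; black lines are means. Spots with neither had the highest means, 50.9% to 63.9%, and spots with both types were missing from the susceptible section.

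The comparison with all other spots and that within clusters gave different values for several of the remaining partners. L5_PT_RSP_ACA was in 11 control, 26 resilient, 6 susceptible and 18 ketamine-treated L6b_CTX spots, 11.8% to 21.2%. Its ratio to all other spots lay between 0.819 and 1.23, with intervals that included 1 in every section. Other spots weighted to the same clusters held it in 33.7%, 48.98%, 44.5% and 48.5%, above the L6b_CTX intervals in all 4 sections. L5_IT_TPE_ENT, a layer 5 type named for temporal association and entorhinal areas, differed by section. It was in 1 of 93 control spots but in 27 of 123 resilient, 10 of 46 susceptible and 9 of 85 ketamine-treated ones. That was 1.004 times its share of all other spots in the control (0.139 to 7.23), and 4.59 (3.20 to 6.58), 9.12 (5.06 to 16.4) and 6.19 (3.17 to 12.1) times in the latter 3. Weighted to the same clusters, other spots held it in 14.5%, 7.04% and 4.56% in these 3, against 22.0% (14.99 to 30.3), 21.7% (10.9 to 36.4) and 10.6% (4.96 to 19.2) of L6b_CTX spots. L4_5_IT_TPE_ENT was in 6, 17, 0 and 6 spots. Astro, the astrocytes, were in 10, 11, 8 and 8, at 0.1998 to 0.414 times their share of other spots, with intervals below 1 in each section. Weighted to the same clusters, other spots held Astro in 20.5% to 31.2%, above the L6b_CTX intervals except in the susceptible section (28.8% against 7.82% to 31.4%).

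Both other layer 6b types met L6b_CTX more often than their rarity in the section. L6b_RHP, named for the retrohippocampal region, was in 6 of 93 control, 4 of 123 resilient, 5 of 46 susceptible and 9 of 85 ketamine-treated L6b_CTX spots, against 0.165%, 0.843%, 0.412% and 0.560% of other spots. L6b_CT_ENT, named for the entorhinal area, was in 5, 7, 2 and 4, against 0.797%, 1.29%, 0.736% and 0.708%. All these ratios to all other spots had intervals above 1, although the counts were small. Weighted to the same clusters, other spots held L6b_RHP in 0.216% to 0.871%, below the L6b_CTX intervals in all 4 sections. For L6b_CT_ENT the weighted values were 1.59%, 4.16%, 2.29% and 0.918%, within the L6b_CTX intervals of the resilient (2.32% to 11.4%) and susceptible (0.531% to 14.8%) sections. Related types have similar expression, and whether the deposited method divides 1 population between them was not tested. L6_IT_CTX, a layer 6 type projecting within the telencephalon, was held by 35, 52, 60 and 38 spots in all. It was in 1 of 93 control and 1 of 85 ketamine-treated L6b_CTX spots. These were 1.15 (0.159 to 8.32) and 1.08 (0.150 to 7.77) times its share of other spots. It was in 0 of 123 resilient and 0 of 46 susceptible ones, which allows shares of up to 2.44% and 6.52%. Other spots held it in 1.29% and 1.77% there. Of the other layer 6 types, L6_Car3 and L6_CT_ENTm shared 1 spot each with L6b_CTX, in the control and the resilient section, and L6_IT_ENTl 1 in the resilient section. L6_IT_RHP and L6_NP_CT_CTX shared none. Each of these 5 was held by at most 23 spots in a section.

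By groups of types, deep-layer types other than L6b_CTX accompanied it in 44 of 93 control, 75 of 123 resilient, 22 of 46 susceptible and 51 of 85 ketamine-treated spots, 47.3% to 61.0%, against 19.2% to 27.9% of other spots. Upper-layer types were in 4.35% to 19.5% of L6b_CTX spots against 34.8% to 42.6% of others, and GABAergic types in 2.17% to 7.53% against 20.7% to 25.8%. In each of these groups the L6b_CTX interval lay apart from that of the other spots in every section. All groups in this paragraph were made from names and set against all other spots only, without weighting to clusters. A name need not give the place. L2_IT_RSPv, grouped as upper-layer, was in 13.7% of other control spots but in 1.95% of those with a cortical type. Types grouped by name as those of the brain surface (Cajal-Retzius neurons and leptomeningeal cells) were in 2, 4, 0 and 3 L6b_CTX spots. They were in 4.95% to 9.33% of other spots. The L6b_CTX interval included the value of other spots in the control (0.262% to 7.55% against 4.95%). It also did so in the ketamine-treated section (0.734% to 9.97% against 8.55%). Spots holding the Cajal-Retzius type also held Oligo in 23.3% (susceptible) and 28.3% (ketamine-treated). Whether they lay at the surface was not tested. For hippocampal types the L6b_CTX interval included the value of other spots in every section. They were in 2.17% to 3.23% against 6.69% to 8.63% in the control, susceptible and ketamine-treated sections. In the resilient section they were in 16 of 123 L6b_CTX spots (7.62% to 20.3%), against 8.95% of other spots. Of these 16, 15 held NP_SUB, a near-projecting type named for the subiculum, 12.2% (6.99 to 19.3) against 3.22% of other resilient spots, a ratio of 3.78 (2.29 to 6.26); it is named here after its values were seen. The remaining glutamatergic types, L5_IT_TPE_ENT among them, were in 26.1% (14.3 to 41.1) of susceptible L6b_CTX spots against 12.9% of others. In the resilient section they were in 22.8% (15.7 to 31.2) against 16.2%, a value within the interval. They were lower in the control, 7.53% (3.08 to 14.9) against 15.3%. In the ketamine-treated section they were in 10.6% (4.96 to 19.2) against 14.3%, again within the interval.

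The susceptible section was set against the control section, a comparison of a mouse that became socially avoidant after stress with a control. The share of spots holding L6b_CTX was 0.536 times that of the control (0.378 to 0.761). Of 30 types with a mean share of at least 0.5% in either section, 10.0% were lower by at least 1.5-fold, and the median ratio of all 30 was 0.954. L6b_CTX had the lowest ratio, next to Oligo at 0.608, while L6_CT_CTX was at 0.823 (0.679 to 0.997). Layer 6 types did not all go the same way, since L6_IT_CTX was at 1.86 (1.23 to 2.81). The highest ratio was that of L2_IT_ENTl, at 6.32. Splitting the difference of −1.16 percentage points by clusters left −1.35 points to lower L6b_CTX within clusters and 0.196 to the unequal sizes of clusters. The ratio was 0.385 (0.202 to 0.734) among spots with Oligo and 0.702 (0.44997 to 1.10) among spots without it. Counted among spots with L6_CT_CTX or L6b_CTX only, it was 0.713 and no longer past 1.5-fold. Susceptible spots also kept fewer types. With the makeup by number of kept types made equal, the ratio was 0.559.

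Against the resilient section, which came from a mouse that did not become avoidant, the susceptible share of L6b_CTX spots was 0.451 times as high (0.323 to 0.632). Of 29 types, 13.8% were lower by at least 1.5-fold, with a median ratio of 0.948. L6b_CTX was again the lowest, next to Ndnf_HPF, interneurons named for the hippocampal formation, at 0.463. L6_CT_CTX stood at 0.730 (0.608 to 0.877) and Oligo at 0.824 (0.766 to 0.886). L6_IT_CTX stood on the other side of 1, at 1.39, with an interval that included 1 (0.963 to 2.01). The highest ratio was that of Meis2, at 5.47. Of the difference of −1.62 points, −1.37 came from lower values within cluster 2. Among spots holding L6_CT_CTX, 7.51% (4.06 to 12.5) of susceptible and 17.8% (13.6 to 22.8) of resilient ones also held L6b_CTX, intervals that did not overlap. The ratio was 0.644 by spots that L6b_CTX led and 0.276 without cluster 2.

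The ketamine-treated and susceptible sections both came from susceptible mice, with and without the drug. L6b_CTX was in 1.83 times as large a share of ketamine-treated spots (1.28 to 2.61). Of 31 types, 6.45% were higher by at least 1.5-fold, and the median ratio was 1.05. L6b_CTX had the highest ratio, next to PVM, the perivascular macrophages, at 1.66. L6_CT_CTX was at 1.22 (1.003 to 1.48) and Oligo at 0.941 (0.867 to 1.02). L6_IT_CTX went the other way, at 0.627 (0.419 to 0.939). The lowest ratio was that of Pvalb_Vipr2, at 0.544. Within clusters the difference was 1.23 of 1.11 points, of which 1.12 lay in cluster 2, and the unequal sizes of clusters took −0.118. Spots without Oligo had a ratio of 1.75 (1.16 to 2.63) and spots with it 2.10 (1.03 to 4.31). Among spots with L6_CT_CTX or L6b_CTX the ratio was 1.42, below 1.5-fold.

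All 3 comparisons past 1.5-fold include the susceptible section, so they are not independent. Between the other sections the ratios had intervals that included 1. Resilient over control stood at 1.19 (0.911 to 1.55), between SMC (smooth muscle) at 1.16 and VLMC (leptomeningeal cells) at 1.21, where 21.4% of 28 types were higher by at least 1.5-fold. Ketamine-treated over control stood at 0.981 (0.734 to 1.31), between Micro (microglia) at 0.977 and L6_CT_CTX at 1.00, where 7.14% of 28 types were lower by that much. Ketamine-treated over resilient stood at 0.826 (0.629 to 1.09), between Sst_Chodl at 0.804 and SMC at 0.871, where 14.3% of 28 types were lower by that much. Without cluster 2 the last 2 ratios were 0.619 and 0.565.

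The tables carry a barcode for each spot, and on arrays of this kind a barcode marks a place in the capture area. No source used here gives the layout. The susceptible and ketamine-treated sections shared 3304 barcodes, 96.0% and 95.02% of their spots, and at 53.2% of these both had the same deposited cluster. The control and resilient sections agreed at 25.8% of 3199 shared barcodes, and the other pairs at 1.10% to 2.56%. The agreement that cluster sizes alone would give was not computed. Whether shared barcodes mark matched places in the tissue was not tested for any pair. At shared barcodes, no spot with more than 1 type had the same shares in both sections of any pair. Spots with a single type and spots at different barcodes were not compared in this way.

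L6b_CTX recurred at the same barcodes in the pair that agreed best. Of the 46 susceptible L6b_CTX spots, 24 held the type in the ketamine-treated section too, 52.2% (36.9 to 67.1), where 2.57% of all shared barcodes held it. Of the 85 ketamine-treated L6b_CTX spots these 24 were 28.2% (19.0 to 39.0), against 1.39% of shared barcodes in the susceptible section. In the control and resilient pair 8 barcodes held it in both. These were 8.33% (3.67 to 15.8) of 96 resilient L6b_CTX spots at shared barcodes, against 2.75% of shared barcodes in the control. In the other pairs at most 1 barcode held it in both, and the intervals included the share of all shared barcodes. For 1 of 93 control spots looked up in the susceptible section this was 1.08% (0.0272 to 5.85) against 1.57%. Counts this small cannot tell recurrence of L6b_CTX above the share of all shared barcodes from its absence in those pairs. L6_CT_CTX, held by more spots, was in both sections at 1 barcode in each of those pairs. For 226 control spots looked up in the susceptible section this was 0.442% (0.0112 to 2.44) against 6.29%. At the 24 places the median L6b_CTX share was 47.2% (susceptible) and 50.7% (ketamine-treated). The share was higher in the ketamine-treated section at 12 of them. Recurrence in this pair was not particular to L6b_CTX. L6_CT_CTX recurred for 63.0% of susceptible and 51.2% of ketamine-treated spots, against 6.45% and 5.24% of shared barcodes. Oligo recurred for 48.0% and 50.4%, against 24.8% and 26.0%. Between control and resilient, L6_CT_CTX recurred for 25.7% of resilient spots, against 6.60% of shared barcodes in the control.

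**Figure D5:**
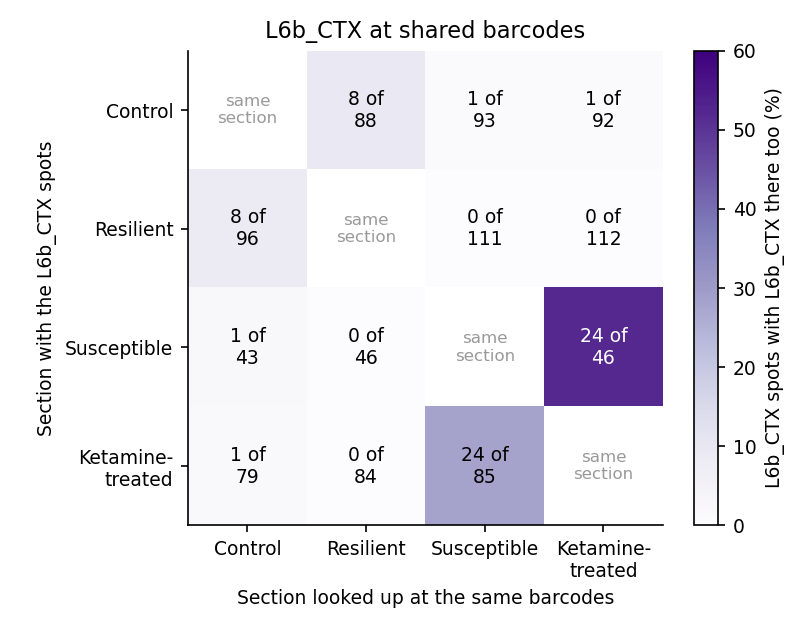
L6b_CTX spots of the section in each row that held L6b_CTX at the same barcode in the section of each column, as a count of the L6b_CTX spots whose barcode both sections have; the colour gives the percent. The susceptible and ketamine-treated sections shared 24 such barcodes and the control and resilient sections 8.

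At the other 61 places of ketamine-treated L6b_CTX spots, the susceptible section held L6_CT_CTX in 34, 55.7% (42.4 to 68.5), against 5.24% of all shared barcodes. It held Oligo in 8, 13.1% (5.84 to 24.2), against 26.0%. Conversely, at the 22 places where the susceptible section alone held L6b_CTX, the ketamine-treated section held L6_CT_CTX in 2, 9.09% (1.12 to 29.2), against 6.45% of all shared barcodes, and Oligo in 6, 27.3% (10.7 to 50.2), against 24.8%. How exactly the sections lay over each other was not measured. Restricted to barcodes that both sections have, the ketamine-treated share of L6b_CTX spots was 1.85 times the susceptible one.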

How the data were processed

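Per the labels' protocols, frozen sections lay on barcoded slides, where RNA was reverse transcribed in place. The authors deposited, per the file headers, a cluster number and the fraction of each spot given to 67 cell types and to unknown. Per the submitters' processing notes, the genome build was mm10. What aligned the reads, made the clusters or estimated the fractions is not given in the sources used here. Apart from 0, no fraction was below 10.1% of a spot. Depth is unknown. The t-SNE coordinates were not used.

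Fractions were analysed with Python 3.11.15, pandas 2.3.3 and scipy 1.17.1. A type was compared where its mean share was at least 0.5% in 1 of 2 sections. Types past 1.5-fold were counted in the direction of the L6b_CTX ratio only. The shares given leave out types as far the other way. In the split by cluster, clusters under 20 spots in either section counted as unequal size. Named types were L6b_CTX, L6_CT_CTX and Oligo, the 8 most frequent partners, the 3 most alike over clusters, all others with L6 in the name, and those next to L6b_CTX in the order of ratios. Type groups were made from the names. The members, lists and rules were chosen with earlier results of these data known. The ratio was tested on simulated data before use.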

Additional observations from a re-analysis of the deposited data

How the results depend on the processing

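Over 14 ratios and 92 alternatives, 70 values stayed within the counting interval of the reported one. The susceptible section kept its ratio below 1 against control (0.303 to 0.713) and resilient (0.276 to 0.650) in all 10 alternatives each, and the ketamine-treated section its ratio above 1 against it (1.42 to 2.04). Leaving out cluster 2 moved susceptible over control to 0.303, susceptible over resilient to 0.276, ketamine-treated over control to 0.619 and ketamine-treated over resilient to 0.565. This removes 267 of the 347 L6b_CTX spots, and the cause of the moves was not tested. Counting spots led by L6b_CTX moved susceptible over resilient to 0.644 and ketamine-treated over resilient to 1.20. Among spots with L6_CT_CTX or L6b_CTX, susceptible over resilient was 0.650. For L6_CT_CTX in L6b_CTX spots, weighting to their clusters gave 1.21 (control), 1.72 (resilient), 1.58 (susceptible) and 1.56 (ketamine-treated). Against other spots with a cortical type it gave 1.37, 1.05 and 1.24 in the last 3, and reversed to 0.908 in the control. For Oligo, weighting to clusters gave 1.84, 2.36 and 1.80 in the control, resilient and susceptible sections, and spots with a cortical type 5.62, 7.11, 5.71 and 4.05 in all 4. In 1 alternative both sections were given the same cluster makeup, each cluster weighted by its mean share of spots over the 4 sections. This could be done for 13 clusters, those holding 345 of the 347 spots. Alternatives by kept types and by shared barcodes were chosen after seeing the data. No paired analysis was possible because each group has 1 section, so none could be left out either. The unknown depth and the missing low fractions limit all values.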
